A study of Mus musculus with 8 samples.

Results

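The comparison described here set EphrinB2-overexpressing against vector-carrying mouse cardiac fibroblasts, both kept under osteogenic differentiation conditions and collected on day 7. Its members were chosen by their labels and make up 4 of the 8 RNA-seq libraries of the series. They are vector osteogenic replicates 1 and 2 and EphrinB2 osteogenic replicates 1 and 2. The other 4 libraries came from the same kinds of cells in complete medium and entered the statistical model, where they helped to estimate the spread. The vector, its promoter, the strain and the age of the animals, and what the osteogenic medium held are not stated in the sources. No label says whether the libraries within a group are from separate cultures, so p-values measure only the spread between libraries, which may be technical. Replicate numbers only name libraries, and nothing was paired.

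EphrinB2 is a transmembrane protein, encoded by Efnb2, that binds Eph receptor tyrosine kinases on neighbouring cells, chiefly those of the EphB class and EphA4. Binding sets off signals in both directions, forward into the cell with the receptor and in reverse into the cell with the ligand, and these signals steer cell adhesion, repulsion and boundary formation. In bone, EphrinB2 and EphB4 take part in the exchange between osteoclasts and osteoblasts, and in the heart and vessels the ligand marks arterial endothelium.

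Expression was given as FPKM, the number of fragments per kilobase of exon and per fixed number of counted reads, a unit that adjusts for gene length and for depth. The steps between low values gave 19282752 to 20550770 counted reads per osteogenic library. Differences are on the scale of log2(FPKM + 1), which understates those of low genes. A gene was tested where its FPKM reached 1 in at least 2 of the 8 libraries, which left 12994 genes. Since RNA came from whole cultures, fewer cells of a type and less RNA per cell cannot be told apart.

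EphrinB2 replicate 1 stood far from the other 3 libraries, and replicate 2 lay near the vector libraries. Against the mean of both vector libraries, 1807 genes (13.9%) of replicate 1 differed at least 2-fold, 1077 of them higher and 730 lower. In replicate 2 this held for 118 genes (0.908%), 53 higher and 65 lower. Each vector library is part of that mean and differed from it that much in 12 genes, which understates its spread. Compared with each other, the vector libraries were at least 2-fold apart in 153 genes and the EphrinB2 libraries in 1579. Against the vector mean, both EphrinB2 libraries were at least 2-fold higher in 10 genes and at least 2-fold lower in 31. In replicate 1 alone 1760 genes differed that much, and in replicate 2 alone 71 did. The FPKM values of replicate 1 summed to 360626, against 253613 to 262091 in the other 3, and 11717 genes reached 1 FPKM in it, against 12047 to 12125.

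**Figure D1:**
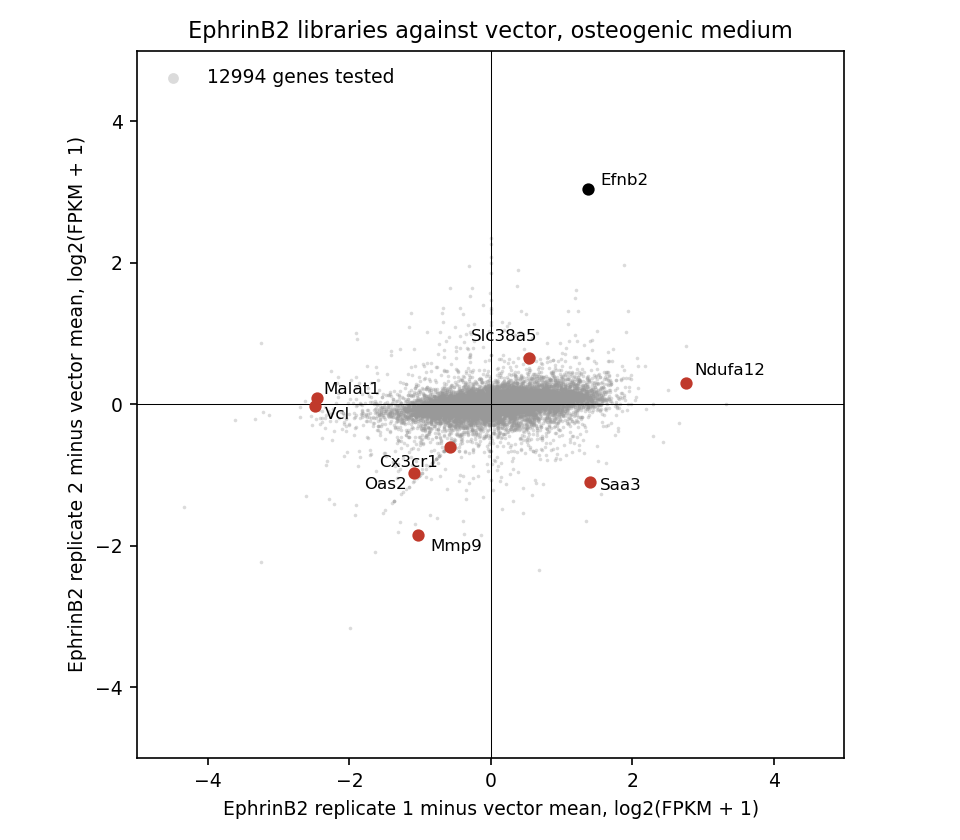
Difference of each EphrinB2 osteogenic library from the mean of both vector osteogenic libraries, in log2(FPKM + 1), for 12994 genes (grey points); replicate 1 is on the horizontal and replicate 2 on the vertical axis, and named genes are marked. The cloud is wide along replicate 1 and narrow along replicate 2, and Efnb2 stands alone at 1.37 and 3.05.

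The difference in replicate 1 followed gene length. Across genes, which are not independent replicates, Spearman's rho between merged exon length and the difference from the vector mean was -0.509 in replicate 1, -0.185 in replicate 2 and 0.0182 in size in each vector library (12990 genes with a length; the genes share each library's depth and normalization). The median difference in replicate 1 was 0.52 for genes of up to 2754 bases, 0.07 for those of 2755 to 5432 bases and -0.41 for longer ones. In replicate 2 the same medians were 0.05, 0.02 and -0.02. Whether length plays a part in any single gene's difference was not tested, and exon lengths are given beside many of the groups of genes described here.

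**Figure D2:**
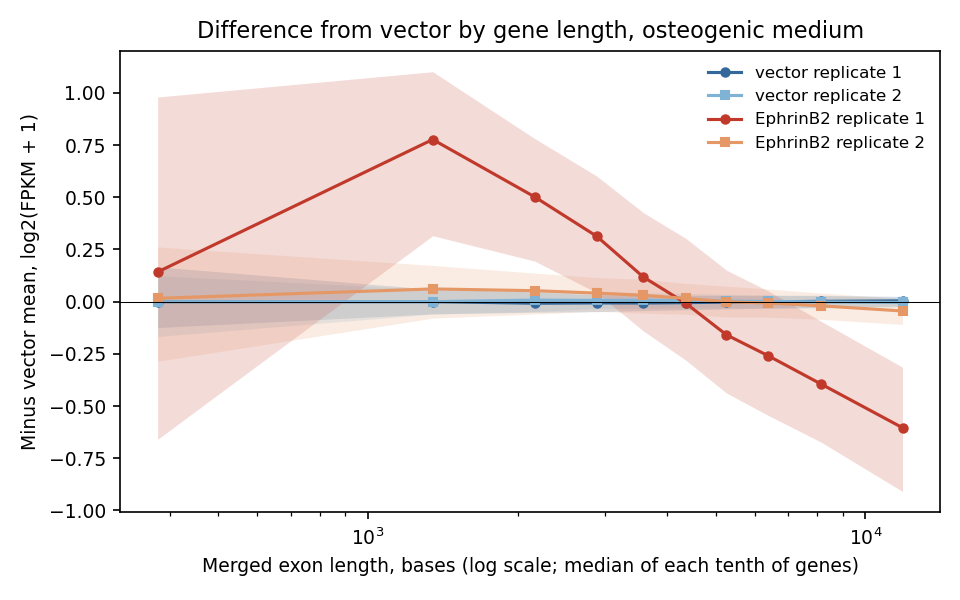
Difference from the vector mean in log2(FPKM + 1) by merged exon length in bases (log axis) in the 4 osteogenic libraries; points are medians over 10 groups of genes of like size and shaded bands the range between quartiles. The median of EphrinB2 replicate 1 is highest, 0.78, in the group around 1350 bases and lowest, -0.60, in the longest genes, while the other 3 libraries stay close to 0. The vector libraries make up the vector mean, so they mirror each other around 0.

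The labelled cell type was checked against its markers. Of 28 fibroblast genes 27 were measured, and Col1a1, Dcn, Vim, Pdgfra and the epicardial lineage factor Tcf21 were well expressed in all 4 libraries. Col1a1, the main chain of type I collagen, stood at 433 and 426 FPKM in the vector libraries and at 281 and 407 in the EphrinB2 libraries. Tcf21 stood at 140 and 142 FPKM with vector and at 249 and 164 with EphrinB2. Macrophage markers were present too, 23 of 24 measured. Their FPKM values summed to 5083 and 5323 with vector and to 8806 and 4514 with EphrinB2. Most of that sum was lysozyme Lyz2, at 3359 and 3478 with vector and at 6061 and 2978 with EphrinB2. Of 16 cardiomyocyte markers only Tnnt2 was measured, and of 11 lymphocyte markers 0 were. Of 16 endothelial markers 5 were measured. The list summed to 136 and 146 FPKM with vector and to 134 and 138 with EphrinB2. The endothelial cadherin Cdh5 lay at 0.370 to 0.602 FPKM in the 4 libraries, so nearly all of that sum came from other markers of the list.

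Efnb2 (ENSMUSG00000001300, GRCm38 chromosome 8, 8617434 to 8661242, minus strand) had the widest gap above vector among the genes ranked. These had a mean FPKM of at least 2 over the osteogenic libraries, and unnamed genes and pseudogenes were passed over. It stood at 1.39 and 1.27 FPKM in the vector libraries (185 and 168 estimated reads) and at 5.02 in EphrinB2 replicate 1 and 18.3 in replicate 2 (707 and 2416 reads). Both EphrinB2 libraries lay above both vector libraries, and replicate 2 lay far above replicate 1. The log2 difference from the vector mean was 1.37 in replicate 1 and 3.05 in replicate 2. Over both the difference was 2.21 (SE 0.48, 95% interval 1.07 to 3.35), which did not pass (limma over all genes, adjusted p = 0.567). Without EphrinB2 osteogenic replicate 1 it was 3.05 and passed (limma, adjusted p = 0.0146), and without replicate 2 it was 1.37 and also passed (adjusted p = 0.0204). Each of those fits has 1 EphrinB2 library in osteogenic medium, which is assumed to vary like the other groups. FPKM does not separate transcripts of the introduced copy from those of the cells' own gene. Over the Efnb2 span lie 3 other annotated genes of the same strand, and how such reads were counted is not stated in the sources.

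No gene passed the threshold in the comparison of EphrinB2 with vector in osteogenic medium (limma on 12994 genes, 0%). The smallest adjusted p was 0.567, and 441 genes (3.39%) had an unadjusted p under 0.05, 243 higher and 198 lower. Without EphrinB2 osteogenic replicate 1 only Efnb2 passed, and without replicate 2, which leaves the library that stood apart, 2742 genes did, 1569 higher and 1173 lower. Genes are therefore described by the value in each library and by whether both EphrinB2 libraries lay above, or both below, both vector libraries. Of the genes tested, 6230 (47.9%) had such groups without overlap. In 3331 (25.6%) both EphrinB2 libraries were above and in 2899 (22.3%) both were below. With each library scaled by its upper quartile, 2610 were above and 3653 below. The share above was 38.4% among genes of up to 2754 bases and 10.1% among those over 5432 bases, and the shares below were 8.66% and 41.4%. Taken alone, EphrinB2 replicate 1 lay above both vector libraries in 47.2% of the genes tested and below both in 45.3%. For replicate 2 these shares were 39.8% and 33.9%. The counts of gene groups are read against the shares of the same kind, for both libraries or for 1.

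The family of Eph receptors and ephrins was the most direct setting for the overexpressed ligand. Of 22 genes 14 were measured, and besides Efnb2 no member differed from the vector mean by as much as 1 log2 unit in both EphrinB2 libraries. Both EphrinB2 libraries lay above vector in 3 members, Efnb2, Efna1 and Efna2, and below in 4, Epha2, Efna5, Ephb2 and Epha7. These shares were 21.4% and 28.6%, beside 25.6% and 22.3% of all genes tested. The median difference was -0.27 in replicate 1 and 0.07 in replicate 2, beside 0.01 and 0.01 over all genes tested. The median exon length was 4657 bases. Over both libraries the list's median was -0.10 as deposited, 0.07 after quantile normalization and 0.01 with the length trend removed, so its direction depends on the scaling. With the length trend removed Efna2 turned to a value below vector and Ephb2 and Epha7 to values above it.

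Among the ligands, Efna1, a membrane-anchored EphA ligand induced by inflammatory signals, stood at 1.33 and 1.41 FPKM with vector and at 2.61 and 1.96 with EphrinB2. Its difference was 0.46 (SE 0.16, limma, adjusted p = 0.567), on 47 to 98 estimated reads per library. Efna2, another EphA ligand, had 0.776 and 0.824 FPKM with vector and 0.959 and 1.10 with EphrinB2. Both genes showed separate groups at a low level. Efna5, a ligand known from axon mapping, stood at 5.80 and 6.28 FPKM with vector and at 3.84 and 5.53 with EphrinB2, again without overlap. Efnb1, the other B ephrin measured, stood at 10.9 and 9.397 FPKM with vector and at 7.74 and 10.9 with EphrinB2. Replicate 1 was its lowest library and replicate 2 lay level with the higher vector library. Efna4 ranged from 0.941 to 2.59 FPKM over the 4 libraries, with both extremes in EphrinB2 libraries.

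Among the receptors, Epha2, which also acts without a ligand in migrating cells, stood at 6.78 and 5.55 FPKM with vector and at 3.27 and 4.38 with EphrinB2. Both EphrinB2 libraries were lower, by 0.74 in replicate 1 and 0.41 in replicate 2 (difference -0.57, SE 0.17, limma, adjusted p = 0.567). Ephb4, the preferred receptor of EphrinB2, was the most abundant receptor in these libraries per length, at 11.96 and 11.5 FPKM with vector and 9.60 and 12.3 with EphrinB2. Its groups overlapped, and the interval of the difference ran from -0.61 to 0.41. Ephb2, a receptor of the same class, stood at 1.66 and 1.77 FPKM with vector and at 1.01 and 1.61 with EphrinB2. Replicate 2 of this gene lay just under the lower vector library. Ephb3 stood at 1.92 and 1.84 FPKM with vector and at 1.79 and 2.02 with EphrinB2, and Ephb6, a receptor without kinase activity, at 2.33 and 2.33 against 2.24 and 2.79. Both overlapped. Epha7 had separate groups at 0.690 and 0.732 FPKM with vector against 0.389 and 0.672 with EphrinB2. Epha3 (0.241 to 0.615 FPKM) and Epha4 (0.544 to 1.159) overlapped, each with EphrinB2 replicate 1 lowest and replicate 2 highest.

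The adaptors and effectors of ephrin and Eph signals gave 26 of 31 members. Both EphrinB2 libraries lay above vector in 6 (23.1%) and below in 7 (26.9%), beside 25.6% and 22.3% of all genes tested. Under upper quartile scaling and under quantile normalization 3 were above and 9 below, and with the length trend removed 6 and 5. Their median exon length was 6151.5 bases. Rgs3, a regulator of G proteins that can bind the tail of B ephrins, stood at 5.75 and 5.96 FPKM with vector and at 8.21 and 6.93 with EphrinB2. Vav3, an exchange factor that acts in Eph endocytosis, stood at 3.18 and 3.04 against 1.77 and 2.61. The EphB2 partner intersectin, Itsn1, stood at 8.76 and 8.73 against 5.76 and 8.02. Adam10, the sheddase that cuts ephrins, stood at 36.0 and 36.6 against 22.98 and 33.6. In the last 3 genes replicate 1 was far lower than replicate 2, and the separation of replicate 2 from vector was small. The difference of Itsn1 was -0.32 as deposited and 0.19 with the length trend removed.

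**Figure D3:**
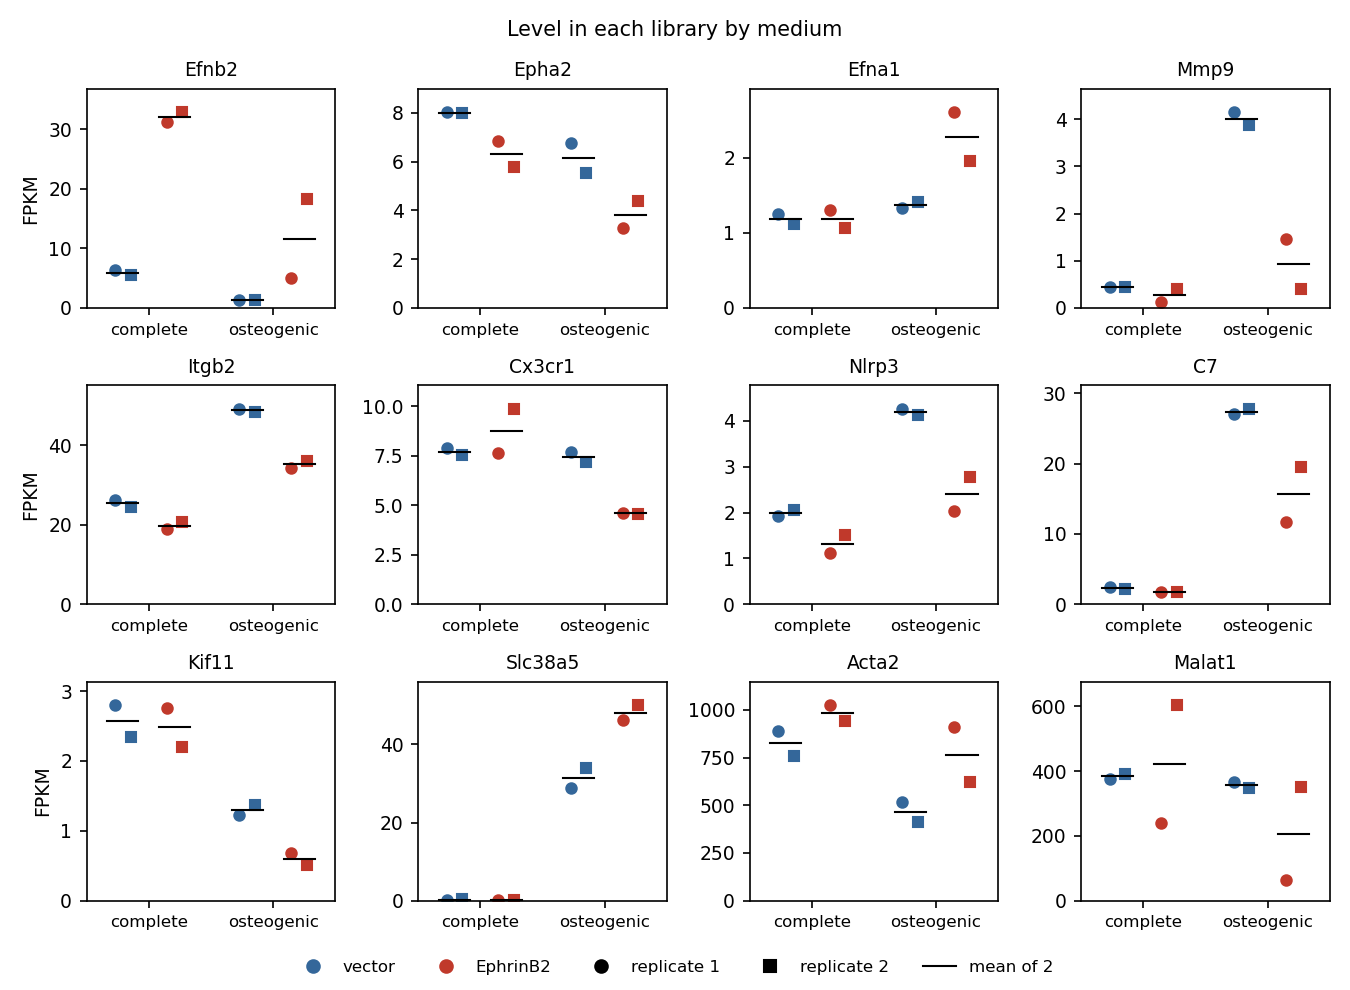
FPKM of 12 genes in each library, by medium; blue is vector and red EphrinB2, circles are replicate 1 and squares replicate 2, and bars the mean of 2. Efnb2 lies at 5.02 and 18.3 in the EphrinB2 osteogenic libraries, Cx3cr1 and Itgb2 are nearly level between both EphrinB2 osteogenic libraries, and Malat1 is low in EphrinB2 osteogenic replicate 1 at 63.0.

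Beyond the family, genes were ranked by their gap, the smallest log2 difference between any EphrinB2 and any vector library in osteogenic medium. Only genes of a mean FPKM of at least 2 over the osteogenic libraries were ranked. Unnamed genes (such as Gm and Rik numbers) and pseudogenes were passed over, so wider gaps may exist among them. After Efnb2 (gap 1.33) the largest gaps above vector belonged to Pcbd2, Ogfod3, Tusc1, Hacd1, Nmb, Slc38a5, Hes1, Stard10, Sdr39u1, Rapsn and Ccdc85b, with gaps of 0.59 down to 0.41. None of the 11 passed the threshold. Slc38a5, a transporter of glutamine and other neutral amino acids, stood at 28.9 and 34.1 FPKM with vector and at 46.2 and 50.1 with EphrinB2. Here the EphrinB2 libraries were near each other, 0.54 and 0.66 above the vector mean, and the difference was 0.60 (SE 0.15, 95% interval 0.23 to 0.97; limma, adjusted p = 0.567). In complete medium the transporter lay at 0.119 to 0.312 FPKM in all 4 libraries. Sdr39u1, a short-chain dehydrogenase homolog, was also nearly level, at 1.57 and 1.74 FPKM with vector and 2.64 and 2.94 with EphrinB2. In the other 9 genes replicate 1 was higher than replicate 2. Pcbd2, a cofactor of HNF1 factors that recycles tetrahydrobiopterin, stood at 9.94 and 9.65 FPKM with vector and at 32.9 and 15.5 with EphrinB2. The neuropeptide gene Nmb, neuromedin B, stood at 17.98 and 17.3 against 56.6 and 24.7. Exon lengths of these 11 genes ran from 546 to 4715 bases.

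Below vector, the rule took 4 genes for very short RNAs of 67 to 132 bases, Snord53, Mir99b, mt-Th and Snora17, with at most 15 estimated reads in any osteogenic library. At this depth and with transcripts this short, their levels are poorly measured. The other 8 were Mmp9, Sumo2, Oas2, Trim30d, Cx3cr1, Rnf213, Nlrp3 and C7. Mmp9, the gelatinase that degrades denatured collagen and is made by macrophages and osteoclasts, stood at 4.15 and 3.88 FPKM with vector and at 1.46 and 0.396 with EphrinB2. Replicate 2 held 27 reads against 284 and 266 in the vector libraries, and the difference was -1.44 (SE 0.28, 95% interval -2.10 to -0.78; limma, adjusted p = 0.567). In complete medium the gelatinase lay at 0.452 and 0.440 with vector and at 0.132 and 0.411 with EphrinB2. Nlrp3, the sensor of the inflammasome, stood at 4.27 and 4.14 against 2.04 and 2.77. The complement component C7, part of the membrane attack complex, stood at 27.0 and 27.8 against 11.7 and 19.6. Sumo2, a small ubiquitin-like modifier with many processed copies that can share its reads, stood at 23.7 and 12.9 FPKM with vector and at 6.61 and 4.87 with EphrinB2. Its vector libraries were 0.83 apart, and the difference between the groups was -1.47 (SE 0.63).

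Macrophage markers separated on 1 side only. In 9 of 23 members (39.1%) both EphrinB2 libraries lay below both vector libraries and in 0 both lay above. In replicate 2, 22 of 23 lay below both vector libraries, beside 33.9% of all genes tested, with a median of -0.24. In replicate 1, 10 lay below and 11 above, with a median of 0.07. The 11 above, among them Lyz2, C1qa and Tyrobp, had exon lengths of 667 to 5024 bases, and the 10 below had lengths of 2919 to 18313 bases. With the length trend removed 12 lay below in both libraries and 0 above. After upper quartile scaling 10 did and after quantile normalization 12, with 0 above in each. The median over both libraries was -0.06, and from -0.14 to -0.21 under those 3 scalings. In complete medium 12 of 23 members had both EphrinB2 libraries below vector and 0 above, with a median of -0.18. Of all 12994 genes tested, 1493 were below and 1858 above in that medium.

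Cx3cr1, the receptor for the chemokine fractalkine, stood at 7.68 and 7.18 FPKM with vector and at 4.63 and 4.57 with EphrinB2. The EphrinB2 libraries were level with each other, -0.58 and -0.60 from the vector mean (difference -0.59, SE 0.15, limma, adjusted p = 0.567). In complete medium, unlike the 12 markers below vector there, Cx3cr1 overlapped between groups, at 7.88 and 7.54 with vector and 7.62 and 9.88 with EphrinB2. Other annotated genes overlap its span on both strands. Adgre1, which encodes the F4/80 antigen, stood at 47.2 and 50.6 FPKM with vector and at 34.1 and 39.5 with EphrinB2. The receptor for colony stimulating factor, Csf1r, stood at 60.8 and 64.9 against 51.0 and 51.4. Ptprc, the pan-leukocyte antigen CD45, stood at 3.05 and 3.29 against 1.92 and 2.29. The groups of all 3 genes were separate. Ptprc has 18313 exonic bases, and its difference of -0.43 was 0.0080 with the length trend removed. The integrin subunit Itgb2, which pairs with leukocyte alpha chains and was on the integrin list, followed the same pattern. It stood at 49.2 and 48.5 FPKM with vector and at 34.3 and 36.1 with EphrinB2, with a difference of -0.46 (SE 0.15, limma, adjusted p = 0.567). Only Ccr2 of the list was not measured, at 0.050 FPKM or less.

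Cell cycle genes gave 35 of 37 members measured. In 14 (40.0%) both EphrinB2 libraries lay below vector and in 0 both lay above. All but 3 members, 32 of 35, lay below both vector libraries in replicate 2, with a median of -0.25. In replicate 1, 15 lay below and 13 above, with a median of 0.01. The median over both libraries was -0.13, and 10 to 18 members lay below with 0 above under upper quartile scaling, quantile normalization and removal of the length trend. Kif11, the kinesin that pushes spindle poles apart, stood at 1.22 and 1.37 FPKM with vector and at 0.677 and 0.506 with EphrinB2. Top2a, the topoisomerase that untangles replicated chromosomes, stood at 2.52 and 2.34 against 1.57 and 1.39. The proliferation antigen Mki67 stood at 2.51 and 2.26 against 1.40 and 1.21, and the kinetochore motor Cenpe at 0.887 and 0.785 against 0.384 and 0.367. In these 4 mitotic genes, which have 7461 to 10061 exonic bases, both EphrinB2 libraries lay close together. Their differences lay between -0.42 and -0.56 (SE 0.15 to 0.31), and none passed (limma, adjusted p = 0.567). In complete medium the 4 genes had no separate groups. In osteogenic medium all members with vector together summed to 166 and 158 FPKM, and with EphrinB2 to 146 and 135.

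**Figure D4:**
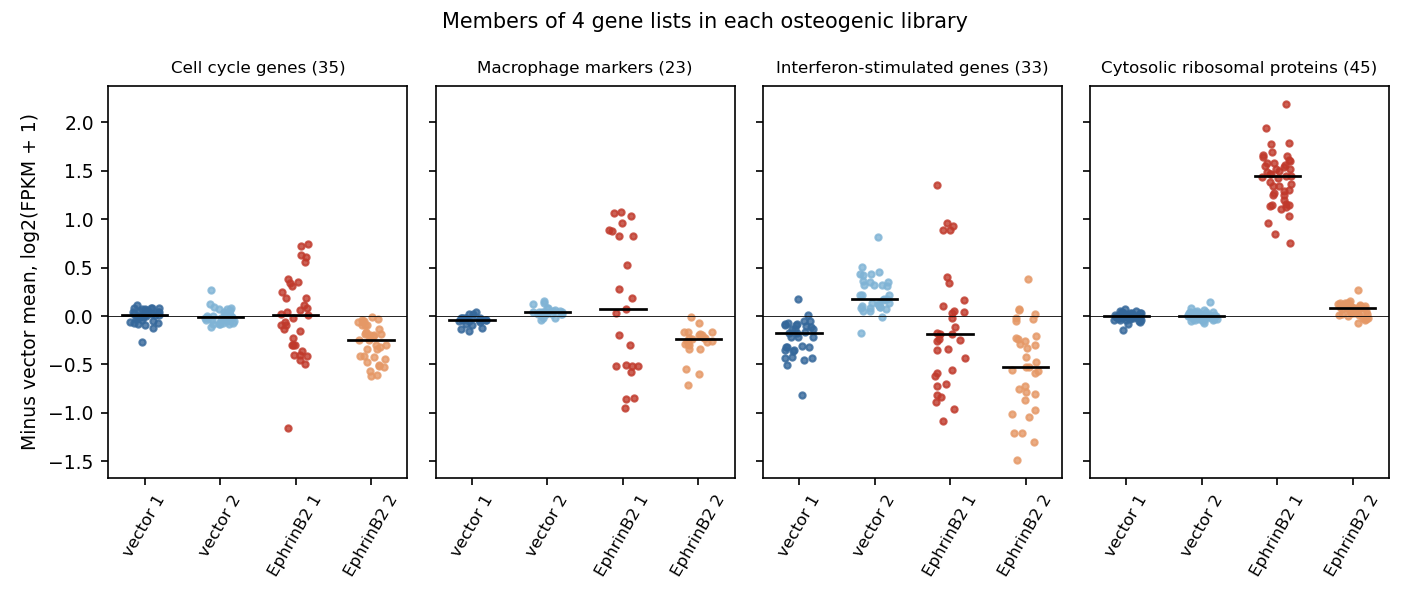
Difference of each measured member of 4 gene lists from the mean of both vector libraries, in log2(FPKM + 1), in each osteogenic library; points are genes, bars the median. EphrinB2 replicate 2 lies below 0 in nearly every cell cycle and macrophage member, interferon-stimulated genes also differ between the vector libraries, and ribosomal protein genes lie near 1.45 in EphrinB2 replicate 1. Both vector libraries are part of that mean, so their distances from it are smaller than those between them.

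Interferon-stimulated genes were lower in EphrinB2 replicate 2, and the vector libraries differed among themselves. Of 33 members measured, 13 (39.4%) had both EphrinB2 libraries below vector and 1 had both above, Ifi27, named after its values were seen. In replicate 2, 26 lay below both vector libraries (median -0.52), and in replicate 1, 16 did and 7 lay above (median -0.19). Under the 3 other scalings 13 to 17 members lay below and 1 or 2 above. Their median exon length was 3776 bases. The list summed to 437 and 666 FPKM with vector and to 762 and 360 with EphrinB2. Oas2, a sensor of double-stranded RNA that activates RNase L, stood at 7.05 and 11.5 FPKM with vector and at 3.72 and 4.11 with EphrinB2. In complete medium it ranged from 2.19 to 6.83 within the vector group alone. Ifi44 stood at 1.86 and 3.63 FPKM with vector and at 1.07 and 1.09 with EphrinB2, and Oasl2, of the same family as Oas2, at 9.16 and 15.5 against 6.85 and 5.44. In all 3 genes the EphrinB2 libraries were close to each other and the vector libraries were not. For Oas2 the difference was -1.03 with a 95% interval of -2.13 to 0.07. Outside the list, the interferon-responsive ubiquitin ligase Rnf213 (13.8 and 18.7 against 3.15 and 9.70) and Trim30d (5.71 and 6.13 against 3.28 and 3.55), were among the largest gaps below vector. Macrophage markers lay below vector in replicate 2 as well, and their part in these values was not tested.

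Promoters of interferon-stimulated genes often carry the interferon-stimulated response element. RefSeq promoter sequences (GRCm38.p6) were searched over the 250 bases before each start on both strands for 2 copies of GAAA with any 2 bases between them. Of all promoters searched, 2.98% hold this motif, and of 9138 tested genes with a promoter there, 3.27% hold it in any promoter. Among the list's 25 tested genes with a promoter there, 13 (52.0%) do, and of the 8 in which both EphrinB2 libraries lay below vector, 3 do. Those 3 were Gbp7, Stat2 and Gbp3, and of the other 17 genes 10 do (58.82%), so the motif was not more frequent among the genes below. The windows of the 3 are shown as examples, with the matches in capitals. Stat2 and Gbp3 fell outside the rule for named genes and were chosen for the motif after their values were seen. All 3 lie on the plus strand, Gbp7 at chr3:142530086-142530335, Stat2 at chr10:128270248-128270497 and Gbp3 at chr3:142559794-142560043. The match in Gbp7 starts 53 bases before the transcription start, that in Stat2 222 bases before it, and Gbp3 holds 2 overlapping matches, the first 45 bases before its start.
Gbp7: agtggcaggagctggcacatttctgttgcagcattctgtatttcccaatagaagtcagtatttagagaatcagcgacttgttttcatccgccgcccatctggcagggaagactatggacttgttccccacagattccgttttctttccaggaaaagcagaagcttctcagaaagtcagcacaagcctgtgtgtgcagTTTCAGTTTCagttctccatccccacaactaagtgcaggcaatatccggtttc
Stat2: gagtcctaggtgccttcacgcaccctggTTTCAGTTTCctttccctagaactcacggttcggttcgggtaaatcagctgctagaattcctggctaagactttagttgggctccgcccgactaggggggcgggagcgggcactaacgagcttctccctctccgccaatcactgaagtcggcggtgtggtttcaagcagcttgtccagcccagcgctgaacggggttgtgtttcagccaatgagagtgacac
Gbp3: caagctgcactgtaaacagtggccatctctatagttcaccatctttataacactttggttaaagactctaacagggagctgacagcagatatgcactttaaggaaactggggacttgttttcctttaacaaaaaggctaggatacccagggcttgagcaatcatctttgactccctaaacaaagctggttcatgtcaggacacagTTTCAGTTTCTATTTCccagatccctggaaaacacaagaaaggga
A match describes the letters of the window and not a bound site. Gbp7, a guanylate-binding GTPase of antimicrobial defence, stood at 3.57 and 4.37 FPKM with vector and at 1.67 and 2.56 with EphrinB2. Stat2, part of the complex that binds this element, stood at 12.5 and 17.1 against 7.06 and 9.64. Gbp3, a neighbour of Gbp7 in the same gene cluster, stood at 13.9 and 22.4 against 11.2 and 7.10, and paralogs in that cluster may share reads. For the 3 genes the EphrinB2 libraries lay on the same side but in a different order, with replicate 1 lower for Gbp7 and Stat2 and replicate 2 lower for Gbp3.

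Cytokines, complement and antigen presentation genes showed the same side of vector in replicate 2 but not in replicate 1. Of 22 cytokine and chemokine genes 15 lay below both vector libraries in replicate 2 (median -0.22), while 14 lay above them in replicate 1 (median 0.41). Both libraries were below in 4, Cxcl13, Il33, Cx3cl1 and Cxcl2. In complete medium 15 of the 22 had both EphrinB2 libraries below vector and 0 above, with a median of -0.46. Of all 12994 genes tested, 1493 were below and 1858 above in that medium. Cxcl13, the chemokine that draws B cells, stood at 1.48 and 1.44 FPKM with vector and at 0.846 and 0.676 with EphrinB2, on 15 to 33 reads. The alarmin Il33 stood at 5.64 and 5.12 against 4.47 and 4.24. Among 20 acute-phase and complement genes 14 lay below vector in replicate 2 and 13 above it in replicate 1, and both libraries were below in 4. This count was 9 after quantile normalization and 8 with the length trend removed, and the median over both libraries, 0.07 as deposited, was -0.12 and -0.10 there and -0.02 after upper quartile scaling. In complete medium 10 of the 20 were below and 0 above. C3, the central complement component, stood at 1587 and 1648 FPKM with vector and at 994 and 1461 with EphrinB2, and C4b at 152 and 179 against 121 and 141. Of 15 genes for MHC class I presentation 10 lay below vector in replicate 2 and 12 above it in replicate 1. Both libraries were below in 2 (13.3%) and above in 0, beside 22.3% and 25.6% of all genes tested. For each of these lists, the counts of single libraries stand beside shares over all genes tested. These were 33.9% below vector in replicate 2 and 47.2% above it in replicate 1. The median length of the cytokine list was 1845 bases. Saa3, an acute-phase apolipoprotein, was among the genes farthest apart between EphrinB2 libraries, at 59.8 FPKM in replicate 1 and 9.81 in replicate 2 with 27.5 and 17.7 in the vector libraries between them.

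Osteoblast genes, which osteogenic medium is used to induce, lay on both sides of vector. Of 30 listed genes 16 were measured, with both EphrinB2 libraries above in 7 (43.8%) and below in 2. Counts above and below were 4 and 2 under upper quartile scaling, 5 and 3 under quantile normalization and 5 and 1 with the length trend removed. In replicate 1, 11 members lay above both vector libraries and 5 below, and in replicate 2, 8 and 4. The shares over all genes tested were 47.2% and 45.3% in replicate 1 and 39.8% and 33.9% in replicate 2. The median exon length was 3671.5 bases, and the median difference was 0.19 in replicate 1 and 0.07 in replicate 2. Omd, a keratan sulphate proteoglycan of mineralized tissue, stood at 8.45 and 8.98 FPKM with vector and at 10.3 and 9.98 with EphrinB2. Postn, periostin of the bone and heart matrix, stood at 11.97 and 12.2 against 13.1 and 14.1. The parathyroid hormone receptor Pth1r stood at 9.64 and 8.76 against 16.1 and 9.88, and Ifitm5, an osteoblast membrane protein also known as BRIL, at 0.945 and 0.743 against 1.34 and 1.02. These differences were between 0.16 and 0.42 and none passed (limma, adjusted p = 0.567 to 0.659), and those of Omd and Ifitm5 were -0.067 and -0.089 with the length trend removed. Col1a1, given above with the fibroblast genes, had both EphrinB2 libraries below vector (difference -0.35). The other member below was Col1a2, its partner chain, named after its values were seen, at 265 and 264 FPKM with vector and at 228 and 263.9 with EphrinB2. Its difference was -0.11 as deposited and 0.21 with the length trend removed. Runx2 and Alpl, the master factor and the alkaline phosphatase of osteoblasts, were outside the rule and are named for their role after their values were seen. Runx2 stood at 2.06 and 2.26 FPKM with vector and at 1.82 and 2.22 with EphrinB2, so that its groups overlapped. Alpl stood at 2.10 and 2.09 with vector, with EphrinB2 replicate 1 above at 3.38 and replicate 2 below at 1.44. Intervals of the difference ran from -0.41 to 0.28 for Runx2 and from -0.56 to 0.72 for Alpl. The commitment factor Sp7 and the late markers Mepe and Sost, also looked up after the fact, were listed at 0 in all 4 libraries.

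Among regulators of mineralization 4 of 12 measured genes (33.3%) had both EphrinB2 libraries above vector and 0 below, at a median of 2683 bases. Over all genes tested these shares were 25.6% and 22.3%. The list had 4 above and 1 below after upper quartile scaling. After quantile normalization 3 were above, and with the length trend removed 2 were, with 0 below in each. The median, 0.06 as deposited, was -0.01 after upper quartile scaling. Mgp, a vitamin K-dependent matrix protein that inhibits calcification, stood at 1168 and 1127 FPKM with vector and at 3221 and 1296 with EphrinB2. The circulating inhibitor fetuin-A, Ahsg, stood at 6.91 and 6.91 against 11.1 and 7.11. For both genes replicate 2 lay little above vector. Within the BMP pathway 10 of 20 members had both EphrinB2 libraries above vector and 1 below. In replicate 2, 16 lay above both vector libraries, beside 39.8% of all genes tested, with a median of 0.14. In replicate 1, 10 of 20 did, near the 47.2% of all genes tested, and 6 lay below, with a median of 0.02. The count above was 7 to 9 under the 3 other scalings, and the median over both libraries, 0.07 as deposited, was -0.02 after upper quartile scaling. Bmp4, a ligand that drives bone formation, stood at 24.3 and 27.4 FPKM with vector and at 34.7 and 33.3 with EphrinB2. Its difference was 0.38 (SE 0.16, 95% interval 0.01 to 0.76; limma, adjusted p = 0.567), nearly equal in both libraries at 0.41 and 0.35. Fst, follistatin, an antagonist of activins and BMPs, stood at 11.2 and 11.2 against 13.4 and 14.1. The target genes Id2 (38.5 and 39.3 against 65.8 and 46.2) and Id4 (5.32 and 6.33 against 8.51 and 7.56) were above vector as well. Exon lengths of these 4 were 2248 to 4589 bases.

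Contractile genes had 11 of 23 members (47.8%) with both EphrinB2 libraries above vector and 3 below. In replicate 2, 16 lay above both vector libraries (median 0.17), beside 39.8% of all genes tested. In replicate 1, 13 (56.5%) did, beside 47.2% of all genes tested, and 10 lay below (median 0.24). Counts above were 7 to 10 under the 3 other scalings, and the median of both libraries was 0.28 as deposited and 0.01 with the length trend removed. The median exon length was 5131 bases. Acta2, smooth muscle actin and the usual mark of myofibroblasts, stood at 516 and 413 FPKM with vector and at 909 and 619 with EphrinB2. The light chain gene Myl9 stood at 113 and 95.7 against 249 and 139, and the tropomyosin Tpm2 at 45.4 and 39.4 against 125 and 55.3. In all 3 genes replicate 1 was the higher of the EphrinB2 libraries and the vector libraries were apart by about as much as replicate 2 was from the nearer of them. Differences were 0.70 to 0.96 (SE 0.25 to 0.36, limma, adjusted p = 0.567). Tnnt2, cardiac troponin T, the only cardiomyocyte marker measured, stood at 5.47 and 6.61 against 14.8 and 8.20. In contrast the long genes of the list lay below vector in replicate 1. Vcl, vinculin of focal adhesions, named after its values were seen, stood at 40.9 and 38.7 FPKM with vector, 6.39 in replicate 1 and 42.2 in replicate 2.

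The TGF-beta, Notch and Wnt lists had median exon lengths of 5552, 5827 and 4558 bases. Over all genes tested, both EphrinB2 libraries lay above vector in 25.6% and below in 22.3%. Of 24 TGF-beta genes 3 had both EphrinB2 libraries above vector and 6 below, against 2 and 8 after upper quartile scaling and 1 and 11 after quantile normalization. In replicate 1, 16 lay below both vector libraries and 5 above, and in replicate 2, 7 and 12. Ccn2, connective tissue growth factor, stood at 518 and 506 FPKM with vector and at 732 and 574 with EphrinB2, a difference that was -0.0097 after quantile normalization. Ccn4, a Wnt-induced relative of Ccn2, stood at 3.44 and 2.93 against 1.85 and 2.38, and Ltbp1, which tethers latent TGF-beta to the matrix, at 2.72 and 2.92 against 1.59 and 2.14. Of 13 Notch genes 2 were above, the target genes Hes1 and Hey1, and 3 below. Hes1, a transcriptional repressor, stood at 13.01 and 13.01 FPKM with vector and at 29.8 and 17.8 with EphrinB2. Hey1, a relative active in heart development, stood at 0.617 and 0.775 against 0.984 and 1.22. The receptor Notch2, with 10782 exonic bases, stood at 15.6 and 15.0 against 4.75 and 13.03. In the Wnt list of 11 genes 2 were above and 0 below, against 2 and 2 or 3 under the 3 other scalings. Those above were Nkd1, a feedback inhibitor, at 2.27 and 2.51 against 3.03 and 3.06, and the antagonist Sfrp2 at 13.3 and 14.8 against 17.1 and 15.2, whose difference was -0.093 with the length trend removed.

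S100 proteins and calcium entry genes differed mainly in replicate 1. Of 13 S100 and RAGE genes, calcium-binding proteins and a receptor for some of them, 12 lay above both vector libraries in replicate 1 with a median of 1.11. In replicate 2 the median was 0.00, with 7 above and 3 below. The list has a median of 1367 exonic bases. Both libraries were above in 7 and below in 1 (53.8% and 7.69%, beside 25.6% and 22.3% of all genes tested). With the length trend removed 4 were above and 3 below. The median over both libraries, 0.61 as deposited, was 0.34 there. S100a6 stood at 675 and 687 FPKM with vector and at 2022 and 731 with EphrinB2, and S100a11 at 734 and 738 against 1574 and 806. The exception was Tlr4, the lipopolysaccharide receptor that also binds S100 dimers, at 10.4 and 11.1 against 3.69 and 8.98. Calcium entry and NFAT genes, 33 measured with a median of 9019 bases, had both EphrinB2 libraries below vector in 13 and above in 5. With the length trend removed 8 were below and 11 above. Piezo1, a channel opened by membrane stretch, stood at 19.2 and 17.9 FPKM with vector and at 2.75 and 15.5 with EphrinB2. Stim2, a calcium sensor of the endoplasmic reticulum, stood at 6.69 and 6.64 against 5.68 and 5.91. Its pore partner Orai1 stood at 7.45 and 8.85 against 12.9 and 9.33, and the channel subunit Cacnb3 at 11.3 and 11.3 against 15.2 and 13.4.

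Replicate 1 stood farthest from vector in lists of short genes on one side and of long genes on the other, though length did not order the lists. The mitochondrially encoded genes, the shortest list at a median of 784 bases, had a median of 0.27 in replicate 1, and the calcium entry list, the longest, had -0.23. All 45 cytosolic ribosomal protein genes lay above both vector libraries in replicate 1, with a median of 1.45, and 34 did in replicate 2, with a median of 0.08. Their median exon length was 1830 bases. Nuclear genes for oxidative phosphorylation followed, with all 44 above vector in replicate 1 (median 1.28) and 33 in replicate 2 (median 0.09), at a median of 1778.5 bases. Ndufa5 of complex I stood at 17.3 and 17.4 against 51.2 and 22.5. With the length trend removed 25 ribosomal and 27 oxidative phosphorylation genes had both libraries above and 0 and 1 below. At the other end, 27 of 29 axon guidance genes (median 7880 bases) lay below vector in replicate 1, with a median of -0.70, and 18 in replicate 2, with a median of -0.04. Both libraries were below in 17 and above in 0, and with the length trend removed in 11 and 3. Sema4d, a semaphorin that inhibits osteoblasts, was low to a like degree in both EphrinB2 libraries, at 1.75 and 2.07 FPKM with vector and 1.04 and 0.966 with EphrinB2 (difference -0.54, SE 0.14, limma, adjusted p = 0.567). Of 48 matrix genes 39 lay below vector in replicate 1 (median -0.51) and 17 in replicate 2 (median 0.00 in size), at a median of 7008 bases. Both libraries were below in 17 and above in 7, and after quantile normalization in 26 and 1. The proteoglycan Vcan stood at 2.26 and 2.22 against 0.602 and 1.36, and Hspg2, perlecan of basement membranes, at 186 and 171 against 42.4 and 155. Among integrin subunits Itga6, a laminin receptor, stood at 4.59 and 4.31 against 1.98 and 3.16, and Itgb5, of a vitronectin receptor, at 267 and 288 against 358 and 341, the latter with a difference of -0.074 after quantile normalization.

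**Figure D5:**
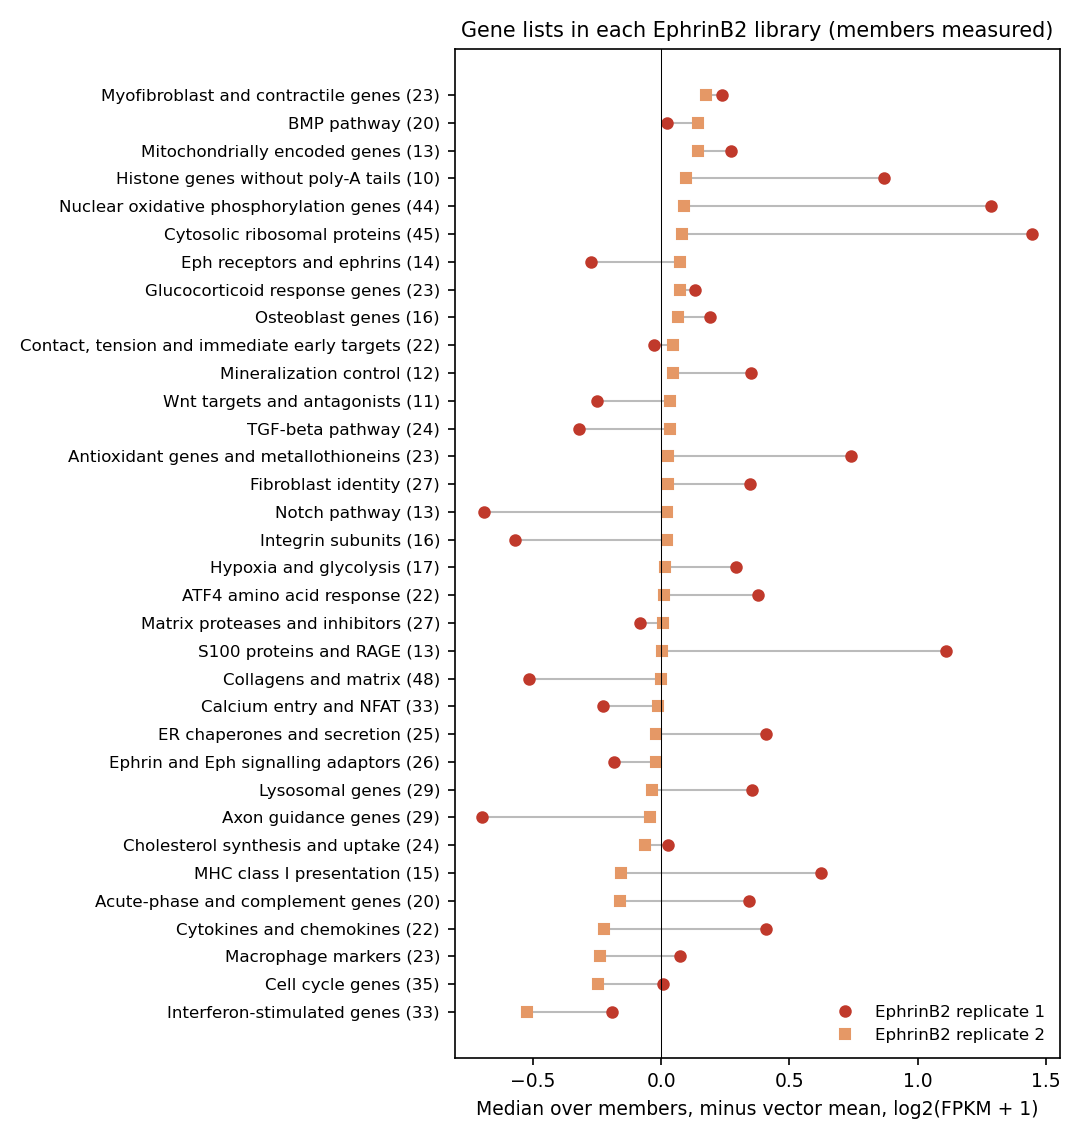
Median difference from the vector mean over the measured members of each gene list with at least 10 of them, in log2(FPKM + 1), in EphrinB2 replicate 1 (red circles) and replicate 2 (orange squares); lists are ordered by replicate 2 and the number of members is in parentheses. Smaller lists are not drawn. Ribosomal protein genes lie at 1.45 in replicate 1 and 0.08 in replicate 2, and interferon-stimulated genes at -0.19 and -0.52.

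As a description of how far the EphrinB2 libraries differed from each other, the genes of a mean FPKM of at least 5 with the largest differences included Saa3, Ndufa12 and Rps27, higher in replicate 1. Ndufa12, a complex I subunit, stood at 3.03 and 2.57 FPKM with vector, 24.7 in replicate 1 and 3.67 in replicate 2. Rps27, a ribosomal protein gene with many processed copies, stood at 71.8 and 87.6 with vector, 366 in replicate 1 and 75.4 in replicate 2. The other 3 genes of that direction and all 6 of the opposite one were a small nucleolar RNA, pseudogenes and unnamed genes of 54 to 459 bases. The nuclear long non-coding RNA Malat1, named after its values were seen, stood at 366 and 349 FPKM with vector, 63.0 in replicate 1 and 350 in replicate 2. In replicate 2 Ndufa12, Rps27 and Malat1 lay 0.30, -0.07 and -0.03 from the vector mean.

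The EphrinB2 difference in osteogenic medium was set against that in complete medium by the interaction of both factors, and 0 genes passed (limma, 0%, smallest adjusted p 0.347; 214 genes, 1.65%, with an unadjusted p under 0.05). The 6 genes that the rule took from it, Mir3569, Gm22574, Gm44507, n-R5s29, n-R5s67 and Mir7664, were of 58 to 343 bases and at or near 0 FPKM in most libraries. In complete medium alone 1 of 12994 genes (0.0077%) passed, Mir3569, with 5 and 4 estimated reads in the vector libraries and 0 in the EphrinB2 libraries (limma, adjusted p = 0.0372). In both media the EphrinB2 libraries lay above vector in 676 genes (5.2%) and below in 421 (3.24%), while 229 (1.76%) lay above in osteogenic and below in complete medium and 190 (1.46%) the reverse. Those above vector in both included Efnb2, Efna2, Stard10, Rapsn, Bmp4, Tpm2 and Acta2, and those below in both included Epha2, Mmp9, Nlrp3, C7, Itgb2, Ptprc and Sema4d. Efnb2 stood at 6.30 and 5.56 FPKM with vector and at 31.3 and 32.8 with EphrinB2 in complete medium, so that its level was even between EphrinB2 libraries there and uneven in osteogenic medium. Its interaction was -0.05 (SE 0.67, limma, adjusted p = 0.98). Itgb2 stood at 26.3 and 24.6 FPKM with vector and at 19.0 and 20.6 with EphrinB2 in complete medium.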

How the data were processed

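The deposited table gives 1 FPKM value for each of 54532 genes in each of 8 libraries. Build mm10 and the tools HISAT2 2.0.5, DESeq2 1.16.1, featureCounts 1.5.0-p3 and CASAVA are named in the submitters' processing notes, and Trizol extraction of total RNA in the labels' protocols. The sources used here do not state strand setting, annotation or filters. GENCODE M21 (GRCm38) gave symbols and merged exon lengths for 54495 identifiers, and 37 did not match. Multiplied by length, the deposited FPKM fell on whole multiples of a library's step (tolerance 0.02 reads) in 98.1% to 98.3% of genes under 50 reads. The step gave the depth. Read numbers are estimates from FPKM, exon length and step. Some are not whole, such as 21924.2 for Acta2 in vector osteogenic replicate 1. They bear on counting error and not on the spread between libraries.

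No count model was run, since FPKM is not a count. Log2(FPKM + 1) of genes with an FPKM of at least 1 in at least 2 libraries entered 1 linear model of the 4 group means in limma 3.58.1 (R 4.3.3), with a mean-variance trend, two-sided tests and Benjamini-Hochberg adjustment over 12994 genes (threshold 0.05, 4 residual degrees of freedom). The model assumes 1 spread for all groups. An exact permutation test of 2 libraries against 2 could not reach 0.05 and was not used. Members and the 40 gene lists were chosen with earlier results of these data known. Lists are described by counts and medians without a test.

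Genes are named by a rule. It takes all measured Eph receptors and ephrins, the 12 widest gaps each way at a mean FPKM of at least 2, and up to 4 members per list by gap. For the 12 widest gaps, unnamed genes (Gm and Rik numbers and accession-like names) and pseudogenes were passed over. It adds the 3 smallest p-values of the osteoblast, S100 and calcium lists, the 6 genes each way farthest apart between EphrinB2 libraries at a mean FPKM of at least 5, and the 3 smallest interaction p-values each way. Some genes that the rule takes are not reported here. Outside the rule, and named for their role after values were seen, were Dcn, Vim, Pdgfra, Lyz2, C1qa, Tyrobp, Ccr2, Runx2, Alpl, Col1a2, Sp7, Mepe, Sost, Ifi27, Stat2, Gbp3, Vcl and Malat1.

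The alternatives were other pseudocounts, filters, scalings, library weights, removal of a loess trend on length (span 0.5), the 4 osteogenic libraries alone and leaving out single libraries. Leaving out EphrinB2 osteogenic replicate 1 and EphrinB2 complete replicate 2 together was added after seeing the data. On simulated data for this comparison, with 200 of 12994 genes made different and each group's own spread, 53 of 100 genes at 2-fold and 98 of 100 at 4-fold were recovered, with 16 false calls. That noise was drawn for each gene on its own and held no trend on gene length and no shift shared by many genes of a library. The simulation therefore cannot say how many real differences of that size would pass in this comparison.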

Additional observations from a re-analysis of the deposited data

Results flagged for a closer look

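In 13 genes named here both EphrinB2 libraries lay on one side of vector in osteogenic medium and on the other side in complete medium. Values are on the log2(FPKM + 1) scale and are means over the libraries of a group. In complete medium the EphrinB2 libraries were at least 2-fold apart in 709 of 12994 genes and the vector libraries in 196. A mean there can therefore rest mainly on 1 EphrinB2 library. The matricellular growth factor Ccn4 lay -0.43 from vector in osteogenic and 0.20 in complete medium (interaction -0.63), and the proteoglycan Dcn lay 0.22 from vector in osteogenic and -0.49 in complete medium (interaction 0.70). The collagen chain Col1a2 lay -0.11 from vector in osteogenic and 0.20 in complete medium (interaction -0.31). The ephrin Efna5 lay -0.32 from vector in osteogenic and 0.32 in complete medium (interaction -0.64), and the osteoblast gene Ifitm5 lay 0.24 from vector in osteogenic and -0.24 in complete medium (interaction 0.48). The pterin enzyme Pcbd2 lay 1.13 from vector in osteogenic and -0.51 in complete medium (interaction 1.64), and the dehydrogenase homolog Sdr39u1 lay 0.51 from vector in osteogenic and -0.18 in complete medium (interaction 0.69). In EphrinB2 complete replicates 1 and 2, Pcbd2 lay -0.05 and -0.98 from the vector mean and Sdr39u1 -0.02 and -0.34, so replicate 2 made up most of both differences. The kinase Sgk1 lay 0.15 from vector in osteogenic and -0.32 in complete medium (interaction 0.47), and the calcium sensor Stim2 lay -0.17 from vector in osteogenic and 0.32 in complete medium (interaction -0.49). In EphrinB2 complete replicates 1 and 2, Sgk1 lay -0.18 and -0.47 from the vector mean and Stim2 0.10 and 0.53. The other 4 are non-coding or unclassified transcripts, among them a lincRNA (Gm44507, 343 bases of exon) and 5S ribosomal RNA genes, and none of the 8 libraries held more than 9 reads of any of them. Gm22574 lay 1.93 from vector in osteogenic and -0.92 in complete medium (interaction 2.85), and Gm44507 lay 0.45 from vector in osteogenic and -1.22 in complete medium (interaction 1.67). n-R5s29 lay -1.20 from vector in osteogenic and 0.77 in complete medium (interaction -1.97), and n-R5s67 lay -1.37 from vector in osteogenic and 0.71 in complete medium (interaction -2.08). All 13 had an adjusted p of 0.746 in the test of the interaction (limma), so none passed the threshold. Over all genes tested, 229 (1.76%) lay above vector in osteogenic and below it in complete medium, and 190 (1.46%) the reverse. No group held the 4 libraries that a check for outlying samples needs.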

How the results depend on the processing

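Of the settings tried, the count of genes that passed for EphrinB2 against vector in osteogenic medium was 0 under both other pseudocounts, upper quartile scaling, quantile normalization, library weights, removal of the length trend, the stricter filter and the 4 osteogenic libraries alone. With no filter 14 of 29961 genes passed, the interaction count was 22 and the groups of 9871 genes did not overlap, and with an FPKM of at least 5 in 2 libraries 4021 of 7728 did not overlap (fewer genes were tested). Leaving out 1 library gave 0 to 2742 genes that passed, 1.37 to 3.05 for Efnb2, 0 for the interaction and 6230 to 12017 genes without overlap. The 2742 came without EphrinB2 osteogenic replicate 2, where 44 named genes passed, and without EphrinB2 osteogenic replicate 1 the count was 1. A group of 1 library is assumed to vary like the others. Without both libraries that stood apart, chosen after seeing the data, 1 gene passed, Efnb2 at 3.05 (limma, adjusted p = 0.0193), and 9577 did not overlap. The cause was not tested.

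Of 127 named genes 31 changed sign somewhere, as log2 differences. Upper quartile scaling put Ephb3 at -0.052. Quantile normalization put Ccn2 at -0.0097, Cdh5 at 0.013, Dcn at -0.078, Epha3 at 0.16, Epha7 at 0.052, Itgb5 at -0.074, Lyz2 at -0.095, Runx2 at 0.0017, Saa3 at -0.072, Sgk1 at -0.11 and mt-Nd1 at -0.18. With the length trend removed Col1a2 lay at 0.21, Efna2 at -0.11, Efna4 at -0.24, Epha3 at 0.12, Epha4 at 0.029, Epha7 at 0.084, Ephb2 at 0.081, Ephb6 at -0.0028, Ifitm5 at -0.089, Itsn1 at 0.19, Lyz2 at -0.038, Omd at -0.067, Ptprc at 0.0080, Runx2 at 0.15, Saa3 at -0.064, Sfrp2 at -0.093 and mt-Nd1 at -0.15. Over the settings that leave out 1 library, Alpl at -0.34 to 0.50, C1qa at -0.16 to 1.03, Efna4 at -0.34 to 0.55, Lyz2 at -0.20 to 0.83, Rps27 at -0.072 to 2.19, Saa3 at -1.09 to 1.40 and Tyrobp at -0.23 to 1.08 were lowest without EphrinB2 osteogenic replicate 1 and highest without replicate 2, and Efnb1 at -0.35 to 0.10, Epha3 at -0.28 to 0.096, Epha4 at -0.40 to 0.083, Ephb4 at -0.27 to 0.060, Pdgfra at -0.79 to 0.025, Runx2 at -0.16 to 0.030 and Vcl at -2.46 to 0.085 the other way. The value without both libraries that stood apart equals that without EphrinB2 osteogenic replicate 1. Ephb3 at -0.048 to 0.065 and Ephb6 at -0.037 to 0.19 were lowest without EphrinB2 osteogenic replicate 2. Efna4 was also below 0 without vector osteogenic replicate 1, as were Ephb3 and Saa3 without vector osteogenic replicate 2. No paired analysis was possible because the labels give no replicate number that ties a vector library to an EphrinB2 library.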

Other observations

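Glucocorticoid response genes, a list taken because osteogenic media commonly contain dexamethasone, had 23 of 24 members measured. In osteogenic medium 6 (26.1%) had both EphrinB2 libraries above vector and 2 (8.7%) below, beside 25.6% and 22.3% of all genes tested. These counts were 3 and 2 after upper quartile scaling, 2 and 3 after quantile normalization and 5 and 4 with the length trend removed, and the median, 0.08 as deposited, was -0.01, -0.15 and -0.05. Cdkn1c, an inhibitor of cyclin-dependent kinases, stood at 32.9 and 34.4 FPKM with vector and at 65.7 and 41.6 with EphrinB2. The kinase gene Sgk1 stood at 60.1 and 63.2 against 70.8 and 66.0, a difference that was -0.11 after quantile normalization. Cholesterol synthesis and uptake genes had 3 of 24 members above and 9 below. Dhcr7, which makes cholesterol in the last step of its synthesis, stood at 2.79 and 2.85 FPKM with vector and at 1.77 and 2.21 with EphrinB2, and Insig1, which holds back the sterol sensor, at 19.7 and 18.9 against 17.1 and 17.7. None of these genes passed the threshold (limma, adjusted p = 0.567 to 0.633). The share below, 9 of 24, was read against 22.3% of all genes tested, and it was 9 under upper quartile scaling, quantile normalization and removal of the length trend too.

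Antioxidant genes had 9 of 23 members (39.1%) above vector in both EphrinB2 libraries and 4 (17.4%) below. Over all genes tested these shares were 25.6% and 22.3%. The median of the list was 0.74 in replicate 1 and 0.03 in replicate 2. Gpx4, which removes lipid peroxides, stood at 151 and 154 FPKM with vector and at 385 and 170 with EphrinB2. With the length trend removed, and also after quantile normalization, 5 were above and 6 below. Of the 13 mitochondrially encoded genes, 6 were above and 1 below. The cytochrome oxidase subunit mt-Co2 stood at 24.5 and 22.3 FPKM with vector and at 75.3 and 30.7 with EphrinB2, and mt-Nd1 of complex I at 1413 and 1312 against 1646 and 1503. The median of the list over both libraries was 0.21 as deposited and -0.15 with the length trend removed. Hypoxia and glycolysis genes had 6 of 17 above and 2 below, among the former Ndrg1 at 4.03 and 3.95 against 5.19 and 4.93, with both EphrinB2 libraries close together. After quantile normalization 3 of the list were above and 5 below, with a median of -0.05 against 0.19 as deposited. Klf4, a zinc finger factor of the immediate early response, stood at 16.4 and 18.3 FPKM with vector and at 11.5 and 13.9 with EphrinB2.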
